A study of Saccharomyces cerevisiae with 4 samples.

Results

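The genes of the cytosolic ribosomal proteins of budding yeast were described by where meiotic double-strand breaks fall around them. Members were all genes with a symbol that starts with RPL or RPS, together with RPP0, RPP1A, RPP1B, RPP2A and RPP2B of the ribosomal stalk. RPP1, a subunit of RNase P with a similar name, is not a ribosomal protein gene and was not taken. This gave 132 members among 5684 protein-coding genes on 15 chromosomes, and 5 more on chromosome XI were left out because gene table and map were out of register there. Of the 132, 78 encode proteins of the large subunit, the 5 stalk genes included, and 54 of the small subunit. An A or B copy is listed for 113 members, and 19 are the single gene for their protein. Pairing was by name. It includes RPP1A with RPP1B and RPP2A with RPP2B, although A and B are different stalk proteins of one family there.

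Each ribosome holds one copy of most of these proteins on a scaffold of ribosomal RNA. Their genes are among the most heavily transcribed of growing yeast: Rap1, Fhl1, Ifh1, Sfp1 and Hmo1 act at their promoters, and starvation, the signal that also starts meiosis, shuts them down. Meiotic breaks are made by Spo11, which stays bound to the cut ends and is then released with a short piece of DNA, the Spo11 oligo. The 5′ end of an oligo marks the cut, and in yeast most cuts lie in the nucleosome-poor stretches at gene promoters.

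The map came from SK1 diploids (MATα/MATa) with the tagged allele SPO11-HA3-His6::kanMX as the source of Spo11. They also carried nuc1Δ::LEU2, a deletion of a mitochondrial nuclease gene, arg4-Nsp and his4X::LEU2, and the strain markers ho::LYS2, leu2::hisG, ura3 and lys2. Cultures were started at an optical density of 0.2, kept for 14 h in presporulation medium at 30 °C, and sampled after 4 h in sporulation medium. Technical datasets 1A, 1B and 1C come from one culture and dataset 2 from another, and all share these alleles and times, so there is no mutant or untreated group. Reads were mapped to S288C, another strain, so sequence found only in SK1 is absent, and all 4 datasets are pooled. The 2024944 uniquely mapped oligos fall into 4 sequencing runs of 395612 to 587674, which the first 7 characters in the names of the reads tell apart. The labels do not say which run belongs to which dataset, so values by run are ranges and not replicates, and no test was made. The counts come from a population and do not tell how many cells were cut.

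For each gene, oligos were counted in the stretch between its start and the neighbouring gene (the 5′ gap), inside the gene, and in the 3′ gap. Counts are given as RPM, oligos per 1000000 mapped oligos. A 5′ gap is divergent where the neighbour also starts at it, and tandem where the neighbour ends at it. A hotspot is a stretch where the smoothed density reached 2.3 times the genome mean, with at least 10 RPM in all. It was given to the gap that holds its summit or to the nearest one.

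Ribosomal protein genes had fewer breaks beside their starts than other genes. A hotspot was assigned to the 5′ gap of 76 of 132 members (57.6%), against 73.9% of all 5544 genes with a 5′ gap. Some of these hotspots have their summit outside the gap. With the summit required inside it, the shares were 56.1% and 71.2%. The median member had 58.0 RPM in its 5′ gap and the median gene 94.3 RPM, although the members' gaps were longer, with a median of 634 bp against 448 bp. Per length, the median was 87.5 RPM per kb for members and 200 RPM per kb for all genes. In single runs the members' share with a hotspot was 53.0 to 64.4% and that of all genes 73.8 to 75%, so the ranges do not overlap.

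The low values were spread over most of the group. Of 132 members, 26 (19.7%) had a 5′ gap density above the median of all genes, against 50% by construction. The lowest quartile of all genes, up to 71.2 RPM per kb, held 56 members, the next held 50, the next 17 and the highest 9. With each position and strand counted once the median rose to 162 RPM per kb for members and 285 for all genes, and the order stayed. The 127 distinct gaps of members together held 30952 oligos, 1.53% of all, in 90.2 kb. That is 169 RPM per kb, where the 4109 distinct 5′ gaps of all genes had 309. The 10 highest members held 43.1% of the members' oligos, and without them the density was 108 RPM per kb. The oligos themselves were alike in length: those in members' gaps averaged 30.4 nt and those in all 5′ gaps 30.6 nt.

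**Figure D1:**
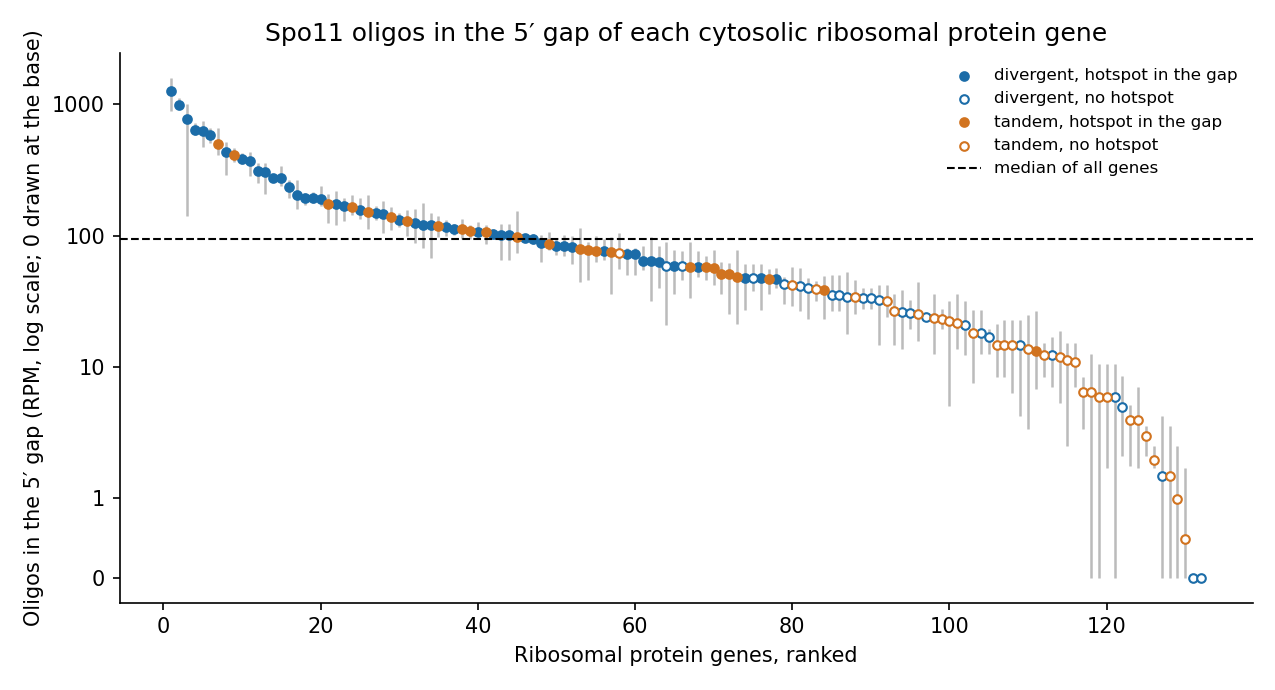
Oligos in the 5′ gap (RPM, log scale) of the 132 cytosolic ribosomal protein genes in rank order; points are pooled values, grey lines the range over the 4 sequencing runs, filled points gaps with a hotspot and the dashed line the median of all genes. The values run from 1265 RPM at RPL43A to 0 at RPL20A and RPS30B, and most points lie below the line at 94.3 RPM.

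The direction of the neighbour was compared next, because divergent gaps hold the starts of both genes. Hotspots were assigned to 50 of 75 members with divergent gaps (66.7%, all genes 81.4%) and to 26 of 57 with tandem gaps (45.6%, all genes 65.9%). Among gaps of 300 to 900 bp, where length differs less, the shares were 30 of 48 divergent members (62.5%, all genes 86.2%) and 21 of 48 tandem members (43.8%, all genes 66.9%). Members were thus below all genes in both classes, also at like gap lengths. The median density was 115 RPM per kb in divergent and 60.2 in tandem gaps of members, against 257 and 140 for all genes.

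Mitochondrial ribosomal protein genes, whose products make up the separate ribosome of that organelle, were counted for comparison. A hotspot was assigned to 42 of 56 of them (75%), and their median density was 227 RPM per kb. In divergent gaps their median was 324 RPM per kb and in tandem gaps 129, so the cytosolic genes were the lower group per kb in both. Their 5′ gaps were shorter, with a median of 331.5 bp against 634 bp for the cytosolic genes. In totals per gap the groups were closer, with medians of 96.1 RPM for mitochondrial and 58.0 RPM for cytosolic genes. In divergent gaps these were 122 and 83.5 RPM, and in tandem gaps 44.0 and 34.1 RPM.

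**Figure D2:**
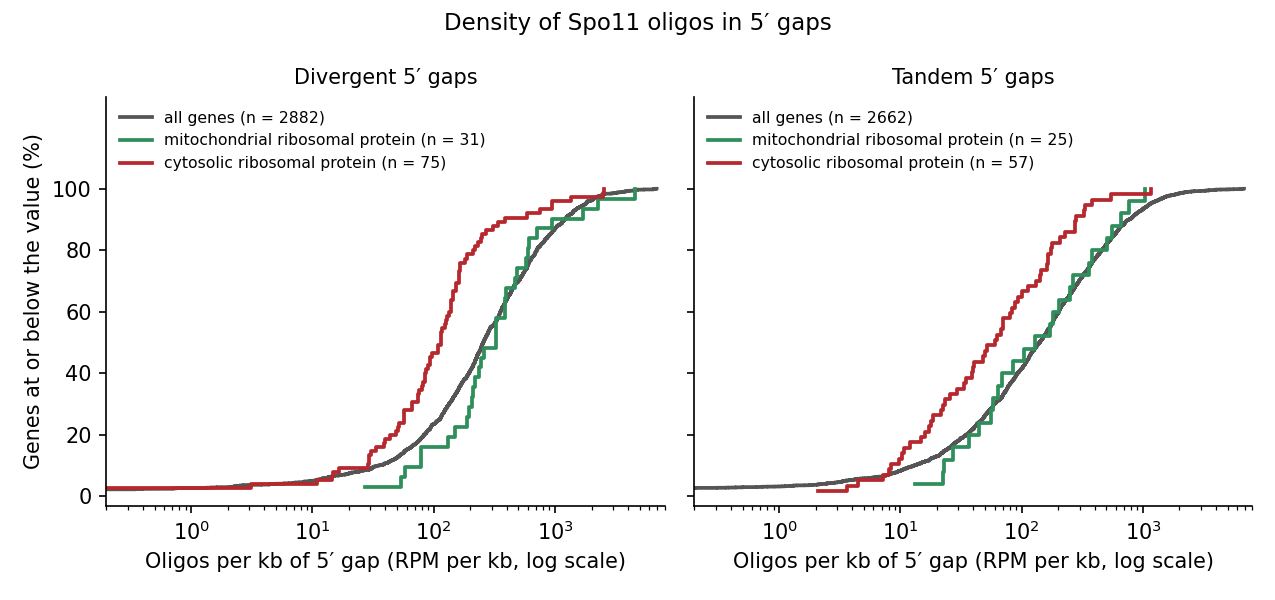
Cumulative share of genes (%) against the density of oligos in the 5′ gap (RPM per kb, log scale), for divergent gaps on the left and tandem gaps on the right; grey is all genes, green the mitochondrial and red the cytosolic ribosomal protein genes. Through the middle of both panels the red line lies to the left of the others, with medians of 115 and 60.2 RPM per kb against 257 and 140 for all genes.

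Close to the gene start the medians of members were clearly lower. From 200 to 100 bp upstream the median density was 79.0 RPM per kb for members, 178 for all genes and 474 for mitochondrial ribosomal protein genes. In the last 100 bp before the start the medians were 4.94, 29.6 and 109 RPM per kb. Farther away the medians lay closer together. From 400 to 200 bp upstream members had 82.7 and all genes 86.4 RPM per kb, from 600 to 400 bp upstream 27.2 and 12.3, and from 1000 to 600 bp upstream 4.94 and 7.41. The median of members was thus higher only from 600 to 400 bp among these windows, and their mean was lower in each, for example 80.1 against 226 RPM per kb from 600 to 400 bp. The register of table and map was within 100 bp in 93 of 93 windows of 50 kb that hold members, and within 50 bp in 73, so a single distance carries an error of that order.

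Among members with at least 20 oligos in the gap, the median oligo lay 364 bp from the start in divergent gaps, against 234 bp for all genes. In tandem gaps it lay at 237 bp against 198 bp, and for mitochondrial ribosomal protein genes at 169 and 149 bp. These distances are not scaled to gap length, which also differed. The median divergent gap was 720 bp for members, 505.5 bp for all genes and 372 bp for mitochondrial ribosomal protein genes. Tandem gaps had medians of 551, 400 and 301 bp in the same order. Most oligos lay beyond the middle of the gap, on the neighbour's side, in 40 of 70 such divergent members (57.1%, all genes 49.9%). In tandem gaps this held for 17 of 46 (37.0%, all genes 53.5%), so most oligos lay on the member's own side in the larger share of tandem members.

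**Figure D3:**
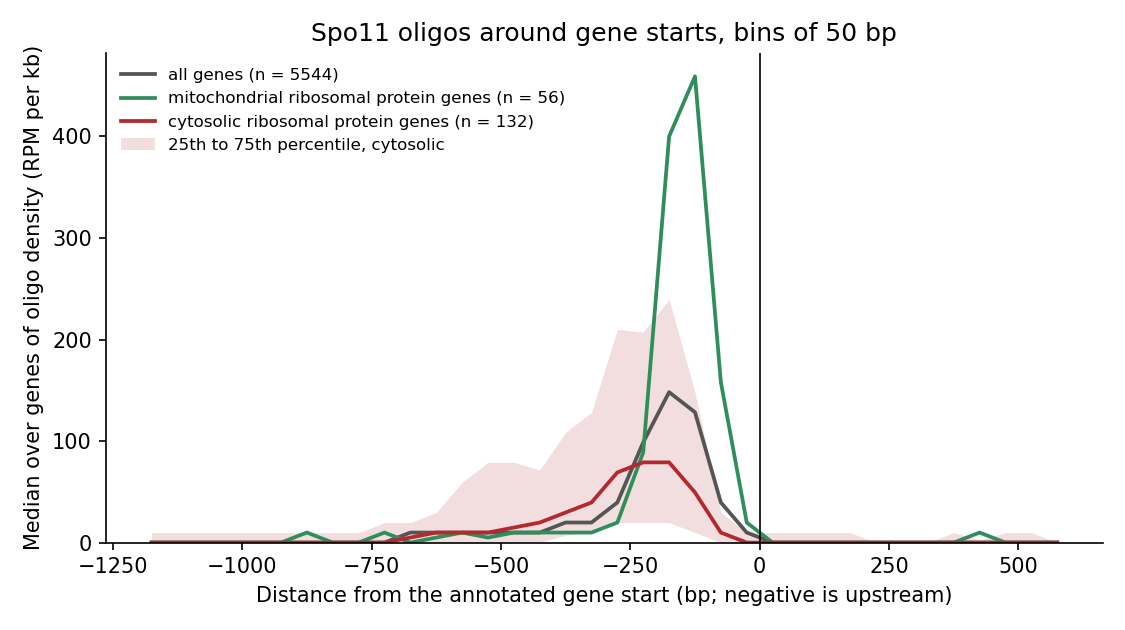
Median over genes of oligo density (RPM per kb, bins of 50 bp) against distance from the annotated gene start (bp, negative is upstream); red is cytosolic ribosomal protein genes with the band from the 25th to the 75th percentile, green mitochondrial ribosomal protein genes and grey all genes. Near the start the red line is the lowest, and farther upstream it lies above the others in some bins, with 79.0 RPM per kb from 200 to 100 bp upstream where all genes have 178.

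The highest member was RPL43A, for a small protein of the large subunit, in a divergent gap of 503 bp shared with PUF2. It had 887, 1373, 1149.55 and 1582 RPM in runs E8YXO9P, FE8RWPF, FFA0GWK and FIDXMPL, and 1265 RPM pooled (2561 oligos, exact 95% Poisson interval 2463 to 2662). Its hotspot lay on chromosome XVI from 653781 to 654117 in the coordinates of the files (S288C, version not given) and ranked 97 of 3626. A single position on the top strand held 473 oligos, 18.5% of the gap.

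RPL7B, for a large subunit protein, followed with 915 to 1107 RPM over the runs and 986 pooled, in a gap of 396 bp. Its hotspot lay on chromosome XVI from 172778 to 173092. The single gene RPL10, whose product joins the large subunit late, in the cytoplasm, had 579 to 720 RPM and 640 pooled; its hotspot lay on chromosome XII from 282472 to 282867. RPL1B, for the mobile L1 stalk by which spent tRNA leaves, had 508 to 655 RPM and 586 pooled. RPL15B had 364 to 465 RPM and 410 pooled in a tandem gap of 352 bp. These 5 had their median oligo 121 to 308 bp from the member's own start.

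In the other 5 of the 10 highest, the oligos lay far from the member. RPS4A, for a small subunit protein, had 772 RPM pooled with the median oligo 740 bp away, in a gap of 816 bp shared with YJR146W. RPL32 had 626 RPM at a median of 858 bp, in a gap of 1059 bp. It shares that gap with ROX3, for a Mediator subunit. RPS22B had 495 RPM at 765 bp, and RPS3, for a protein at the mRNA entry channel, had 432 RPM at 1251 bp. RPL43B had 381 RPM at 2047 bp, in a gap of 2653 bp shared with IME1, the master regulator of entry into meiosis. A high 5′ gap therefore did not mean breaks at the member's promoter in these genes. With only the 500 bp nearest the start counted, a choice made after the data were seen, 56 members had a hotspot summit there (42.4%, all genes 63.3%).

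RPS4A also differed between runs. It had 943, 951 and 998 RPM in runs E8YXO9P, FE8RWPF and FFA0GWK and 141 RPM in FIDXMPL, 0.148 times the median of the others. The 67 oligos of FIDXMPL fell on 38 positions, while the other runs had 373 to 565 oligos on 110 to 129 positions. Fewer oligos can fall on fewer positions, so the number of positions is not a separate observation. Among 72 members over 50 RPM, FIDXMPL was below 0.5 of the others' median in 7 and above 2 times in 0. Among 3643 genes over that level it was below in 99 (2.72%). How many of those genes were above 2 times is not given here. Next were RPL15A at 0.297 and RPS6A at 0.416. Whether this run comes from one of the cultures is not given, and its part in the members' values was not tested.

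**Figure D4:**
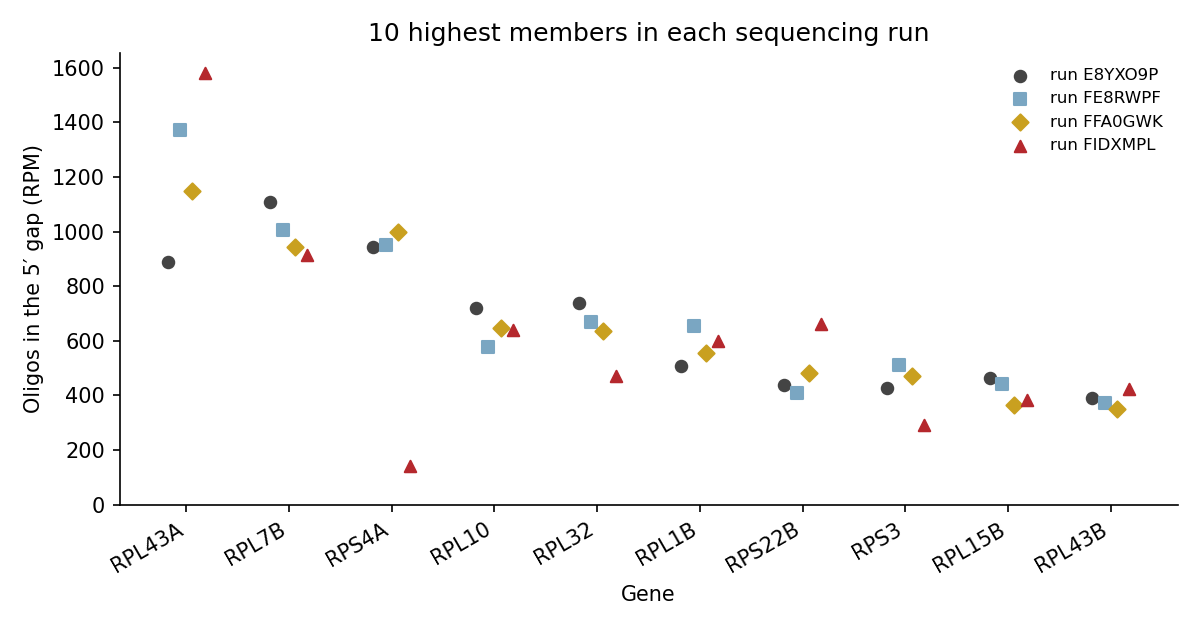
Oligos in the 5′ gap (RPM) of the 10 highest ribosomal protein genes in each of the 4 sequencing runs, one marker per run. RPS4A in run FIDXMPL stands at 141 RPM below 943 to 998 in the others, while RPL43A runs from 887 to 1582.

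At the other end, 16 of 132 members had under 10 RPM. The share of all genes under that level is not given here. The 25th percentile was 23.0 RPM for members and 30.6 RPM for all genes. RPL20A and RPS30B had 0 oligos, which allows up to 1.48 RPM, but their gaps were only 76 and 78 bp long. RPS26A had 1 oligo, and RPL29, a single gene for a dispensable large subunit protein, had 2 in 272 bp. RPL21B had 3, RPL9B had 4 and RPL14B had 6. RPL34A in 551 bp and RPL36A in 332 bp had 8 each. None of the 10 lowest had a hotspot in the 5′ gap.

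Some of these low counts rest on where the gap is taken to end. Of the 10 lowest, 5 are bounded by a neighbour known only by a systematic name. Without such genes as neighbours, a choice made after the data were seen, RPL9B rose from 1.98 to 159 RPM, with a hotspot, in a gap of 1391 bp. RPS26A then had 13.3, RPL21B 6.42 and RPL20A 4.94 RPM and still no hotspot. Over all members that choice changed 21 gaps, and the share with a hotspot was 61.4% against 78.5% of all genes.

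Large subunit genes had a hotspot in 43 of 78 cases (55.1%) and small subunit genes in 33 of 54 (61.1%). Their median densities were 86.2 and 90.0 RPM per kb, and 15 and 11 genes were above the median of all genes. By class the shares were 26 of 41 and 24 of 34 in divergent gaps (63.4% and 70.6%) and 17 of 37 and 9 of 20 in tandem gaps (45.9% and 45.0%). Both subunits were below all genes, and their distance from each other changed with the setting. At 4 times the genome mean the large subunit had 34.6% and the small subunit 50% (all genes 63.1%), and in run FIDXMPL alone 46.2% and 63.0%. With only the nearest 500 bp counted the order turned, with 44.9% and 38.9%.

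Within the large subunit, the 5 stalk genes encode the lateral arm that recruits translation factors. RPP0, the base of the stalk, had 84.0 RPM. RPP1A had 108 and RPP1B 13.8 RPM. RPP2A had 100.2 and RPP2B 32.6 RPM. Hotspots were assigned to RPP0, RPP1A and RPP2A, so in both pairs one gene had a hotspot and the other did not.

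Single genes had a hotspot in 13 of 19 cases (68.4%) and genes with a copy in 63 of 113 (55.8%), a difference of 12.7 points. Both shares were below the 73.9% of all genes, but without the members that share a gap with another member the single genes stood at 12 of 16 (75%) against 74.0% of all genes. Their median densities were 129 and 84.0 RPM per kb. Single genes also had divergent gaps more often, 68.4% against 54.9%. Within divergent gaps the shares were 9 of 13 and 41 of 62 (69.2% and 66.1%), and within tandem gaps 4 of 6 and 22 of 51 (66.7% and 43.1%). The groups are thus close in divergent gaps, and the tandem value rests on 6 genes.

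Of the single genes, RPL10, RPL32 and RPS3 are described above. RPS2, whose product helps read the code accurately, had 308 RPM. RPL3, at the peptidyl transferase centre, had 192 RPM in 2 hotspots. RPS20 had 175 RPM in a tandem gap and RPL28, the gene of cycloheximide resistance, 174 RPM. These lay above the median of all genes in RPM, as did RPL38 with 103 and RPS15 with 100.2.

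Other single genes were lower. RPL5, which carries a small ribosomal RNA into the large subunit, had 56.3 RPM and RPS13 had 48.4, each with a hotspot in a tandem gap. No hotspot was assigned to RPL39, RPL30, RPL25, RPS31, RPS12 or RPL29. RPL39 lines the exit tunnel and had 35.6 RPM, and RPL25, a docking site at its mouth, had 26.2 RPM. RPL30, which represses splicing of its own transcript, had 33.6 RPM. RPS31, made as a fusion to ubiquitin, had 14.8 RPM and RPS12 had 5.93 RPM.

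A divergent gap shared by ribosomal protein genes occurred 5 times. The gap of RPP2A and RPS15 had 203 oligos (100.2 RPM), that of RPL13A and RPS16B 147 (72.6 RPM), and that of RPL13B and RPS16A 97 (47.9 RPM). These 3 had a hotspot. The gap of RPL39 and RPS22A with 72 oligos (35.6 RPM) and that of RPL30 and RPL24A with 68 (33.6 RPM) had none. The 10 members that share a gap had a median of 66.5 RPM per kb, and none was above the median of all genes. RPL13 and RPS16 are neighbours in both copies of a duplicated segment, and the totals of those gaps differed by 1.52-fold.

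Genes paired by name as A and B copies seldom had like values. The pairs include RPP1A with RPP1B and RPP2A with RPP2B, which encode different stalk proteins. Both copies lie on the 15 chromosomes for 54 pairs, and for 5 more members the partner is on XI. In 15 pairs both copies had a hotspot, in 30 only one, and in 9 neither. Of all 113 genes with a copy, 55.8% had a hotspot. Pairs of unrelated genes were not compared, so neither these counts nor the ratios below show whether copies differ more than other genes. The larger 5′ gap total exceeded the smaller by a median of 4.65-fold, by over 2-fold in 43 pairs and by over 10-fold in 16, with counts under 3 set to 3. Per kb of gap, a measure added after the data were seen, the median was 3.99-fold, with 39 pairs over 2-fold and 10 over 10-fold. The higher copy then turned in 6 pairs (RPL4, RPL18, RPL21, RPS1, RPS10 and RPS14), while RPL43 went from 3.32-fold to 17.5-fold. Across the 54 pairs Pearson's r of log2(RPM + 1) was 0.04 and Spearman's rho −0.07, a description across genes of one pooled map. The A copy was higher in 27 pairs and the B copy in 27. The RPL13 and RPS16 pairs rest on the same gaps, so the 54 pairs hold that comparison under both names. It counts for the A copy in RPL13 and for the B copy in RPS16. In 47 pairs the same copy was higher in all 4 runs.

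Among the widest pairs, RPS26A had 1 oligo and RPS26B 294, a ratio of 294 (95% counting interval 52.4 to 11651), or 98 with 3 counts set for the 1; the protein lies at the mRNA exit channel. RPS30A had 216 and RPS30B 0, at least 72-fold higher with 3 counts as the limit of a count of 0. RPS25A had 10 and RPS25B 413 oligos, 41.3-fold, in gaps of like length (1598 and 1530 bp). RPL9A had 79 and RPL9B 4, 19.8-fold.

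Several of these ratios rest on gap length or on where a gap ends. Per kb the ratio was 15.3 for RPS26 and 17.5 for RPS30, with counts under 3 set to 3, and 43.1 for RPS25. Without neighbours known only by a systematic name, the RPS26 totals differed by 10.9-fold and the RPS25 totals by 15.3-fold. Under that choice RPL9 turned direction, with RPL9B 4.08-fold above RPL9A.

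The closest pairs were RPL27 with 62.7 RPM at A and 64.2 at B, and RPL22 with 96.8 and 88.4. RPS1 had 113 and 148, RPL42 had 78.0 and 58.3, and RPS10 had 83.5 and 120 RPM. In RPL27 and RPL22 the higher copy was the same in only 2 of 4 runs, so their copies did not differ beyond the spread over runs.

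In 24 pairs one copy has a divergent and the other a tandem gap, and the divergent copy was higher in 15. The totals of these 24 pairs differed by a median of 6.29-fold, with 10 over 10-fold, and those of the 30 pairs alike in gap class by 3.62-fold, with 6 over 10-fold. Per kb the medians were 3.75-fold and 4.14-fold, so the order of these groups turned. Over all pairs, without neighbours known only by a systematic name, the median of the totals was 4.15-fold, with 42 pairs over 2-fold and 16 over 10-fold.

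**Figure D5:**
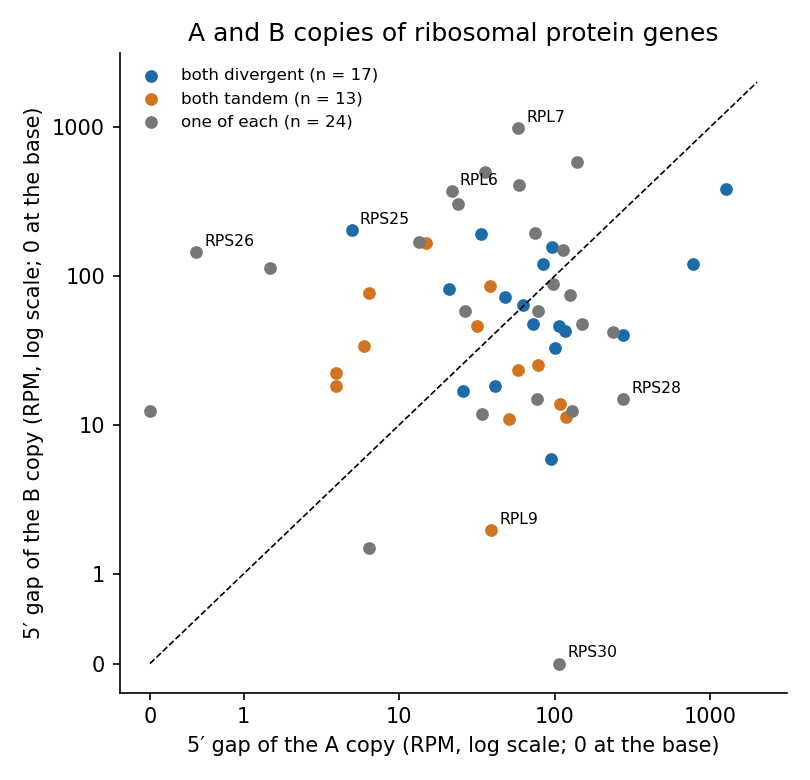
Oligos in the 5′ gap of the B copy against the A copy (RPM, both axes log, 0 drawn at the base) for 54 pairs, coloured by whether both gaps are divergent, both tandem or one of each; the dashed line marks equal values and 7 pairs with large ratios are named. The points spread on both sides of the line, 27 above and 27 below, with 43 pairs over 2-fold apart.

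Per kb, breaks inside genes were fewer than in 5′ gaps, and fewer in members than in all genes. The members' genes held 762 oligos in 98.6 kb, 3.82 RPM per kb against 15.8 over all genes. The median was 3.05 RPM per kb for members and 4.98 for all genes, and 23 members (17.4%) were above that value, against 50% by construction. In 11 of 132 members there were 0 oligos inside the gene, as in 230 of all 5544 genes. Members are shorter, with a median of 771 bp against 1197 bp, and a short gene more easily has a count of 0. Copies of a pair can be nearly identical in coding sequence, and reads that match both are absent from a list of unique matches, so values inside genes with a copy are uncertain. The 19 single genes, which have no such copy, had 91 oligos and 3.68 RPM per kb, against 3.84 for genes with a copy. By median the order turned, with 3.60 for single genes and 3.01 for genes with a copy. The part of lost reads in these values was not tested.

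The densest interiors were RPS22B with 37.2 RPM per kb (66 oligos), RPL23A with 22.6 (42 oligos) and RPS21B with 20.5 (30 oligos). RPL10 had 12.6 RPM per kb and RPL26A 10.1, with 17 oligos each. The spans counted run from start to end of the gene and include introns. RPS22B and RPL10 are also among the 10 highest 5′ gaps, whereas the 5′ gaps of RPL23A, RPS21B and RPL26A had 150, 132 and 129 RPM.

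On the 3′ side the share of members above the median was close to that of all genes, but tandem 3′ gaps were lower in members. Of 132 members, 63 (47.7%) had a 3′ gap above the median of all genes, against 50% by construction, and the share was 50.8% with the gene table moved by −100 bp, 51.5% in run FE8RWPF alone and 50% without neighbours known only by a systematic name. Where the neighbour also ends at the gap (convergent), 4 of 68 members had a hotspot (5.88%, all genes 8.57%). Where the neighbour starts there (tandem), 38 of 64 had one (59.4%, all genes 65.7%). The median density was 6.34 RPM per kb in convergent 3′ gaps of members and 6.37 in those of all genes. In tandem 3′ gaps it was 86.8 RPM per kb for members and 141 for all genes. The highest 3′ gaps were those of RPL36B with 471 RPM toward ATG41, RPL4A with 431 toward YBR032W and RPL34A with 422 toward FCY2, chosen after their values were seen. On their 5′ sides RPL36B had 22.2 RPM, RPL4A 38.5 and RPL34A 3.95. In 29 of 64 members with a tandem 3′ gap (45.3%, all genes 40.6%) that gap was denser than the 5′ gap.

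Genes that act with the ribosomal proteins were counted for comparison. Of all genes 73.9% had a hotspot in the 5′ gap, with a median of 200 RPM per kb. Of 11 regulators of ribosomal protein genes all had a hotspot in the 5′ gap, with a median of 504 RPM per kb. DOT6 and TOD6, repressors of ribosome biogenesis genes, were highest with 1083 and 458 RPM, and the corepressor CRF1 and the activator FHL1 lowest with 71.6 and 67.7 RPM. Of 20 translation factors 17 had one (85%), with a median of 367 RPM per kb. The 17 include HYP2, with 4 oligos in its gap. A hotspot needs at least 10 RPM, so most oligos of that hotspot lay outside the gap. EFT2 and TEF2, for elongation factors that, like ribosomal proteins, are made in very large amounts, had 1343 and 1259 RPM, while SUI2, for an initiation factor subunit, had 14.8 and HYP2, for a factor that relieves stalled ribosomes, 1.98 RPM.

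Of 23 ribosome assembly factors 15 had a hotspot (65.2%, all genes 73.9%), with a median of 83.1 RPM per kb, close to that of the members. NHP2, of a particle that modifies ribosomal RNA, had 467 RPM and YTM1, of large subunit assembly, 417, while the kinase gene RIO2 and RLP24 had 14.8 RPM each. Of 6 chaperones dedicated to single ribosomal proteins 4 had one (66.7%), with a median of 103 RPM per kb. YAR1, chaperone of Rps3, had 105 RPM and SQT1, of Rpl10, had 56.3, while TSR2, of Rps26, had 27.7 and ACL4, of Rpl4, had 26.7.

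The members' hotspots were also smaller. The 84 hotspots assigned to members had a median of 84.2 RPM and a width of 202 bp, against 119 RPM and 211 bp for all 3626. Of these 84, 13 were in the top quartile of all 3626. Only that of RPL43A was among the top 100 of all, a number too small to read as a difference.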

How the data were processed

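Both deposited files pool the 4 datasets. The authors' list of uniquely mapped reads gives position, strand, name and a score per read, a deposited number from the mapping that was not used. The authors' curated map holds hit counts per position without normalisation, per the file headers, and served as an alternative. The headers name S288C as the genome; for aligner, curation and genome version the sources used here say nothing.

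From the list, the cut was the start of top-strand and the end of bottom-strand reads. Counts were smoothed with a Hann window of 201 bp, and stretches of at least 2.3 times the mean of a 12 Mb genome were merged within 200 bp and kept from 25 bp and 10 RPM. Genes and gaps came from RefSeq's R64 table, used for names and neighbours. Of the gene table, chromosome XI was left out, since the register there was off by a median of −375 bp in 9 windows. In 295 of 396 member regions (74.5%) list and curated map had equal counts, and the largest difference was 8 oligos. PCR copies cannot be recognised, so intervals and the floor of 3 counts cover counting error only.

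The members and lists were chosen with earlier results of these data known. Named are the 10 highest and lowest 5′ gaps, the 5 densest interiors, the 5 widest and closest pairs, the single genes, members that share a gap, and 2 at each end of every list. The values of some named by this rule are not reported here on their own. ABF1, TOR2, TEF4, TIF1, RPF2 and LTV1 of the lists were not analysed here. No promoter sequence was used, so a planned motif search was not run. Counting and hotspot calling were tested on simulated data. Python 3.11.15, numpy 2.4.6, pandas 2.3.3, scipy 1.17.1 and matplotlib 3.10.9 were used.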

Additional observations from a re-analysis of the deposited data

How the results depend on the processing

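The share of members with a hotspot in the 5′ gap was below that of all genes under each of 22 alternatives, at 40.2 to 75.8%, with differences of −23.6 to −9.33 points. The alternatives used the curated map, single runs or left one out, counted each position once or at most 10 times, moved the gene table by 100 bp, left out members that share a gap or genes within 20 kb of a chromosome end, kept gaps of 300 to 900 bp, changed threshold, size, window or assignment of hotspots, and, chosen after the data were seen, changed the neighbours or kept 500 bp. The share without one run was 56.8 to 59.8%. The share with a 5′ gap above the median of all genes was below 50% in 18 of 18 alternatives, as was the share for the gene interior.

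The 3′ gap share of 47.7% became 50.8% with the gene table moved by −100 bp, 51.5% in run FE8RWPF alone and 50% without neighbours known only by a systematic name, where all genes had just under that. The single genes went from 68.4% to 75% without members that share a gap. The large subunit had 34.6% at 4 times the mean and the small subunit 38.9% with 500 bp of the gap. The median of 87.5 RPM per kb was 162 with each position counted once, 126 with at most 10 and 75.8 in run FIDXMPL alone, each below all genes. The cause was not tested. Gaps with few oligos are limited by depth, since 1 oligo is 0.494 RPM. No paired analysis was possible because the files pool the datasets and no label ties a run to one.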
